A study of Homo sapiens with 15 samples.

Results

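The transcriptome of 786O cells that lost ANGPTL4 was compared with that of 786O cells that kept it, in 6 of the 15 RNA-seq libraries of a study of human clear cell renal cell carcinoma (ccRCC) cell lines. The libraries were taken by the cell line and genotype in their labels, which give 3 WT and 3 ANGPTL4 KO (A4KO) replicates. The other 9 libraries are CAKi-1 WT and A4KO and were used here only to compare the A4KO against WT change between the lines. The stated aim was to find the transcriptional changes that follow the loss of ANGPTL4. 786O is an established ccRCC line with mutant VHL, and both of its groups were grown with serum (in RPMI by the labels, in DMEM by the methods) and harvested in log phase before confluence. Both groups also came from the same treatment, a direct transfection of Cas9 protein (the labels write Caspase 9) with a single guide RNA against ANGPTL4. Clones were then grown from single cells. Those that had lost ANGPTL4 mRNA were pooled as A4KO, and those that had not were pooled as WT. WT and A4KO 786O are therefore mixtures of different clones, and the genotype and differences between the pooled clones cannot be told apart. The labels do not say that replicates were separate cultures, so p-values measure only the spread between these libraries, which may be technical.

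ANGPTL4 is a secreted glycoprotein whose amino-terminal part inhibits lipoprotein lipase and whose carboxy-terminal part binds integrins and matrix proteins. The extracellular matrix around a tumor cell is built from collagens, laminins, large glycoproteins and proteoglycans, which pass through the endoplasmic reticulum (ER) and the Golgi before they are crosslinked, bound by integrins and cut by proteases outside the cell. Genes can be held silent by DNA methylation, by Polycomb complexes or by histone H3K9 methylation. Cancer-testis genes and the silent copy of imprinted genes are the usual examples.

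Levels are in TPM, which add up to between 969146 and 970955 over the 16188 genes of each library. Across genes, which are not independent replicates, libraries of the same genotype correlated at a Pearson r of 0.997 on the log2 scale and libraries of different genotype at 0.967. Among genes with a mean of at least 5 TPM in the group concerned, the median coefficient of variation was 4.01% in WT and 3.77% in A4KO. The 3 WT libraries carried 7.47%, 8.16% and 7.81% of their TPM in mitochondrially encoded genes and the A4KO libraries 10.0%, 9.84% and 9.46%. The mitochondrial share was higher in every A4KO library than in every WT library, and its part in the other differences was not tested.

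ANGPTL4 (chromosome 19, 8363289 to 8374370, hg38) measured 20.6, 17.6 and 18.1 TPM in WT, against 2.19, 2.17 and 1.86 TPM in A4KO. The A4KO mean was 11% of the WT mean, and each library followed its label. Its log2 fold change was -2.69 (SE 0.0737, limma adjusted p = 1.57e-06, 3 against 3). Fold changes here are differences of log2(TPM + 1), which understate the change of genes near or under 1 TPM. The clones were chosen for this loss, so the fall of ANGPTL4 checks the labels and is not a finding. An exact permutation test of 3 against 3 libraries cannot give a two-sided p under 0.1, so the tests are from limma, fitted to all genes.

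Most renal identity genes were expressed, 16 of 19 at a mean of at least 1 TPM, and several differed between the groups. CA9 was at 7.54 TPM in WT and 0.287 TPM in A4KO. PAX8, the renal lineage transcription factor, was at 231 ± 6.34 TPM (SD, n = 3) in WT and 152 ± 4.22 TPM in A4KO, and vimentin (VIM) was at 4508 and 3425 TPM. PAX8 and VIM were not called. Of 19 genes of renal and ccRCC identity 1 was called higher and 6 lower (36.8% called, beside 7.62% of all genes, median log2 fold change -0.46). PAX2, the close relative of PAX8, rose from 11.2 to 41.0 TPM. The cadherin CDH6 fell from 213 to 43.8 TPM, the adhesion molecule EPCAM from 17.4 to 3.12 TPM and keratin KRT19 from 401 to 134 TPM.

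Most markers of other cell types were low in both groups. Of 8 endothelial markers 5 were measured. They summed to 5.05, 2.99 and 4.89 TPM in WT and to 2.95, 2.49 and 3.32 TPM in A4KO, with EMCN the most abundant, while CDH5, VWF and KDR are not listed among the genes. None was called by limma, and 2 had an unadjusted p under 0.05, which 64.5% of all genes had. Of 8 leukocyte markers 4 were measured, and PTPRC stayed under 0.32 TPM in every library. CD68, a lysosomal glycoprotein that is not confined to leukocytes, made up nearly all of the summed 44.3, 43.0 and 43.6 TPM in WT and 20.3, 21.8 and 21.2 TPM in A4KO. It was called lower at -1.06, and not after neighbour centring (-0.53), in which the median shift of the 25 expressed genes on each side is taken off. CD3E, LYZ and TYROBP are not listed. Of 8 fibroblast markers 6 were measured, summing to 30.3, 28.2 and 30.4 TPM in WT and 22.5, 24.5 and 19.5 TPM in A4KO, with ACTA2 the most abundant and PDGFRA and COL3A1 not listed. PDGFRB rose from 0.407 to 4.69 TPM and the proteoglycan LUM fell from 7.93 to 1.28 TPM.

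A gene was called when its absolute log2 fold change was at least 1 and its adjusted p at most 0.05. By this rule 1233 of 16188 genes (7.62%) differed, 393 higher in A4KO (2.43%) and 840 lower (5.19%). Calls higher in A4KO were thus 31.9% of the calls. With quantile normalization of the libraries they were 42.7% (519 of 1216, with 1088 genes called both ways of scaling), while median ratio scaling gave 398 higher of 1236. The balance of rises and falls thus changed with quantile normalization and little with median ratio scaling. The median log2 fold change of all genes was -0.03. Changes of at least 3 on the log2 scale were mostly falls, with 65 genes lower and 8 higher.

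The 12 largest falls on this scale were of genes well expressed in WT, which the added 1 TPM makes a condition of so large a fall. With 0.1 TPM added, MXRA5 (-7.47) and SLCO2A1 (-6.62) fell further than CTHRC1 (-6.55). The amino acid transporter SLC38A5 was at 300.3, 293 and 301 TPM in WT against 0.464, 0.307 and 0.577 TPM in A4KO (log2 fold change -7.69, SE 0.0711, adjusted p = 8.08e-08). The prostaglandin D synthase PTGDS fell from 308 ± 6.79 to 1.49 ± 0.290 TPM. CHRDL1, a secreted antagonist of bone morphogenetic proteins, was at 126, 130 and 123 TPM in WT and under 0.63 TPM in every A4KO library. The matrix genes CTHRC1, COL6A3 and TNC were among the same 12. The remaining genes of the 12 largest falls were AUTS2, the raft protein gene MAL, the melanosome transport gene MLPH, the stathmin STMN3, the mesenchymal cadherin CDH11 and the cancer-testis gene MAGEA6. Each of the 12 was lower in all 3 A4KO libraries than in any WT library, a condition of the choice.

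On this scale NDN rose most, and with 0.1 TPM added ALPK3 (5.86), KCNH2 (5.47) and USH1C (5.15) exceeded NDN (5.11). Most of the largest rises started from low levels, and PLAC8 (15.8 to 134 TPM) was the exception above 10 TPM. NDN, an imprinted gene of the MAGE family, was at 0.359, 0.508 and 0.674 TPM in WT against 21.6, 21.5 and 18.97 TPM in A4KO (log2 fold change 3.84, SE 0.0898, adjusted p = 9.38e-07). MGMT, the DNA repair methyltransferase whose promoter methylation is well known in glioma, rose from 2.96 ± 0.175 to 37.0 ± 1.13 TPM. The kinase gene ALPK3 was at 0.117, 0.0914 and 0.113 TPM in WT against 11.1, 13.2 and 11.5 TPM in A4KO. TNFAIP6, a secreted hyaluronan-binding protein, rose from 0.593 to 12.5 TPM, and the mitochondrial aldehyde dehydrogenase ALDH2 from 4.33 to 39.3 TPM. The others were the sulfotransferase SULT1A1, CLEC4OP, SMIM36, PLAC8, the lysosomal membrane protein GLMP, the receptor PTH2R and PICK1. SULT1A1 has near-identical copies, and how reads were shared among them is not given in the sources used here, so its level is uncertain.

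**Figure D1:**
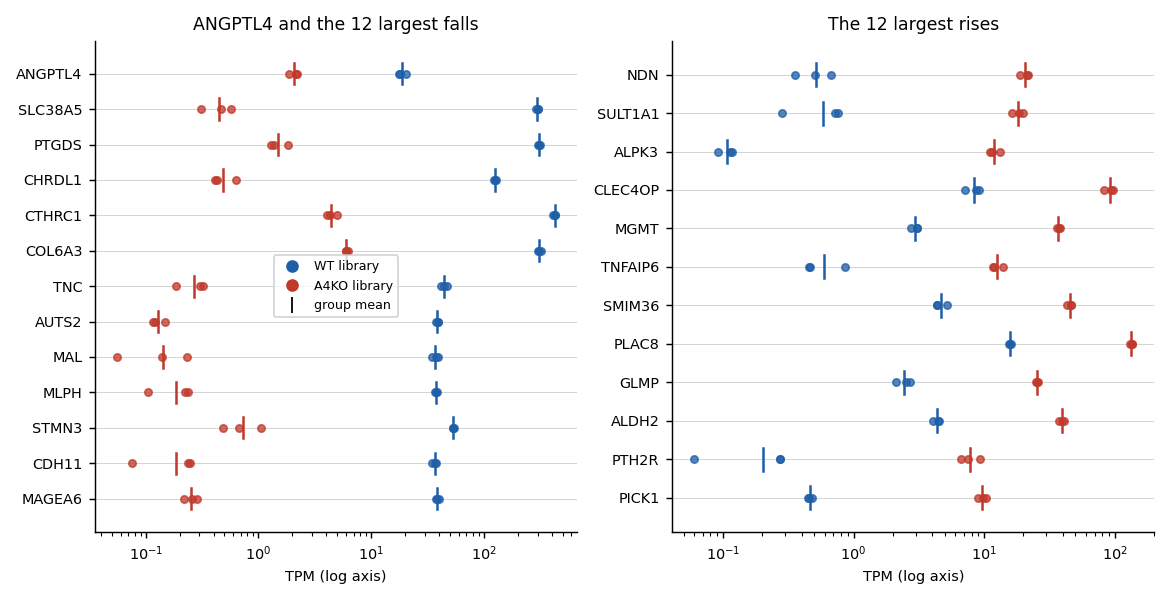
TPM (log axis) of ANGPTL4 and the 12 largest falls (left) and of the 12 largest rises (right), with a point for each WT and A4KO library and a bar at each group mean. The falls begin between 36.6 and 425 TPM in WT, apart from ANGPTL4 at 18.8 TPM, and the rises begin between 0.107 and 15.8 TPM.

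Matrix genes were called more often than genes at large, and mostly lower. The gene lists, here and below, were chosen with earlier results of these data known, so their shares are descriptive. Of 280 genes in the 7 matrix lists 224 were measured, and 53 were called (23.7%, beside 7.62% of all genes), 47 lower (21.0%, beside 5.19%) and 6 higher (2.68%, beside 2.43%). Their median log2 fold change was -0.19, beside -0.03 for all genes. Together the measured matrix genes held 19300 TPM in the first WT library, 18670 TPM in the second and 18660 TPM in the third, against 12750, 12970 and 12980 TPM in A4KO.

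Fibronectin (FN1), named here after its values were seen because it was the most abundant matrix transcript, made up much of that difference. It was at 4200 TPM, 3997 TPM and 4043 TPM in WT against 897 TPM, 909 TPM and 920 TPM in A4KO (log2 fold change -2.16, SE 0.0366, adjusted p = 3.30e-07). Without FN1 the summed level was 14790 ± 265 TPM in WT and 11990 ± 119 TPM in A4KO. Some other abundant matrix transcripts, such as CTHRC1 and COL6A3, were called lower, and others were not called. SPP1 (osteopontin) was at 981 TPM in WT and 1152 TPM in A4KO, TGFBI at 1105 and 828 TPM, and SPARC at 736 and 535 TPM.

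Among matrix glycoproteins 14 of 50 measured genes were called, all of them lower (28.0%, beside 5.19% of all genes), with a median of -0.37. After neighbour centring 13 of these 14 calls remained. CTHRC1, a secreted collagen triple helix repeat protein, was at 412, 432 and 430 TPM in WT against 4.36, 4.95 and 4.04 TPM in A4KO. Tenascin C (TNC), an adhesion-modulating glycoprotein of tumor stroma, fell from 44.4 ± 3.00 to 0.269 ± 0.0732 TPM. MXRA5 was near 20 TPM in WT against 0.0140, 0.0110 and 0.0108 TPM in A4KO. Of the latent TGF-beta binding proteins, which tether the growth factor to matrix fibres, LTBP4 fell from 106 to 5.25 TPM, LTBP2 from 19.2 to 1.04 TPM and LTBP3 from 127 to 57.4 TPM. Fibrillin FBN1, matrilins MATN2 and MATN3 and the fibulin-family gene EFEMP1 were also called lower.

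Collagens went both ways. Of 29 measured chains 8 were called lower (27.6%, beside 5.19% of all genes) and 2 higher (6.9%, beside 2.43%). The list's median was 0.01. COL6A3 (chromosome 2, 237324003 to 237414328), a chain of the beaded-filament collagen VI, was at 320, 303 and 308 TPM in WT against 6.18, 6.01 and 5.96 TPM in A4KO (log2 fold change -5.46, SE 0.0380, adjusted p = 3.52e-08). Its partner chains fell less, COL6A1 from 78.5 to 34.1 TPM and COL6A2 from 158 to 67.1 TPM. The anchoring fibril collagen COL7A1 fell from 199.7 to 79.0 TPM, and COL9A2, COL12A1, COL14A1 and COL16A1 also fell. Of the basement membrane chains, COL4A1 was called higher, and not after neighbour centring (0.64). It was at 81.0, 76.7 and 79.0 TPM in WT against 194, 191 and 183 TPM in A4KO. Its head-to-head neighbour COL4A2 was at 95.4 and 191 TPM (log2 fold change 0.99), just under the fold threshold. COL18A1, the source of endostatin, rose from 24.8 ± 3.56 to 66.6 ± 14.4 TPM. The interstitial chain COL1A1 was at 3.49 and 4.03 TPM and COL1A2 under 0.1 TPM in every library.

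Of 23 measured laminins and other basement membrane genes 3 were called, all lower (13%, beside 5.19%). Nidogen NID2, which links laminin to collagen IV, fell from 93.3 ± 3.49 to 5.55 ± 0.372 TPM. LAMA5 fell from 34.5 to 8.88 TPM. Agrin (AGRN), the most abundant of the list, was at 323 TPM in WT and 347 TPM in A4KO. Of 20 measured proteoglycans 1 was higher and 3 lower (20% called, beside 7.62% of all genes). The small leucine-rich proteoglycan LUM, the testican SPOCK1 (144 to 54.8 TPM) and the syndecan SDC3 (33.1 to 12.3 TPM) fell, and brevican (BCAN) rose from 5.01 to 18.3 TPM.

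Of 29 genes of collagen modification and crosslinking 6 were called lower (20.7%, beside 5.19% of all genes) and 1 higher (3.45%, beside 2.43%). After neighbour centring 5 of these 7 calls remained. Lysyl oxidase (LOX), which crosslinks collagen and elastin, was at 19.5, 20.7 and 18.7 TPM in WT against 0.303, 0.587 and 0.629 TPM in A4KO. The transglutaminase TGM2 fell from 112 to 40.3 TPM, the procollagen protease enhancer PCOLCE2 from 21.5 to 3.54 TPM and the tolloid-like protease TLL2 from 9.15 to 2.01 TPM. The procollagen peptidase ADAMTS3 was called higher, from 5.88 to 12.9 TPM, but its log2 fold change of 1.01 lay at the threshold and the call was lost without WT replicate 2 (0.98), WT replicate 3 (0.99) or A4KO replicate 2 (0.99), and after neighbour centring (0.55). LOXL2, the most abundant gene of the list, was at 402 TPM in WT and 332 TPM in A4KO and was not called.

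Of 49 measured proteases and inhibitors 10 were called lower (20.4%, beside 5.19% of all genes) and 1 higher (2.04%, beside 2.43%). Their median was -0.33. The gelatinase MMP2 was at 202, 191 and 191 TPM in WT against 6.24, 5.24 and 6.42 TPM in A4KO (log2 fold change -4.82, SE 0.0737, adjusted p = 2.36e-07). ADAMTS12 fell from 22.5 to 0.829 TPM, the aggrecanase ADAMTS5 from 8.34 to 0.966 TPM and the inhibitor TIMP4 from 6.64 to 0.955 TPM. Matrilysin (MMP7) rose from 6.54 ± 0.447 to 24.3 ± 0.496 TPM. The urokinase gene PLAU fell from 71.1 to 30.6 TPM. MMP14, the membrane activator of MMP2, was at 352 and 191 TPM, a log2 fold change of -0.88 that was not called.

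Of 24 measured integrins, the receptors for these proteins, 3 were called lower (12.5%, beside 5.19%) and 1 higher (4.17%, beside 2.43%). ITGB3, the beta chain of the vitronectin receptor, fell from 222 ± 1.23 to 84.8 ± 1.84 TPM and ITGA4 from 9.18 to 1.92 TPM. ITGB7 rose from 0.232 to 3.14 TPM. ITGB2 was called lower at -1.01, but not with quantile normalization (-0.81) and not without WT replicate 1 (-0.90), A4KO replicate 1 (-0.9986) or A4KO replicate 2 (-0.93). The most abundant integrin, ITGB1, was not called.

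**Figure D2:**
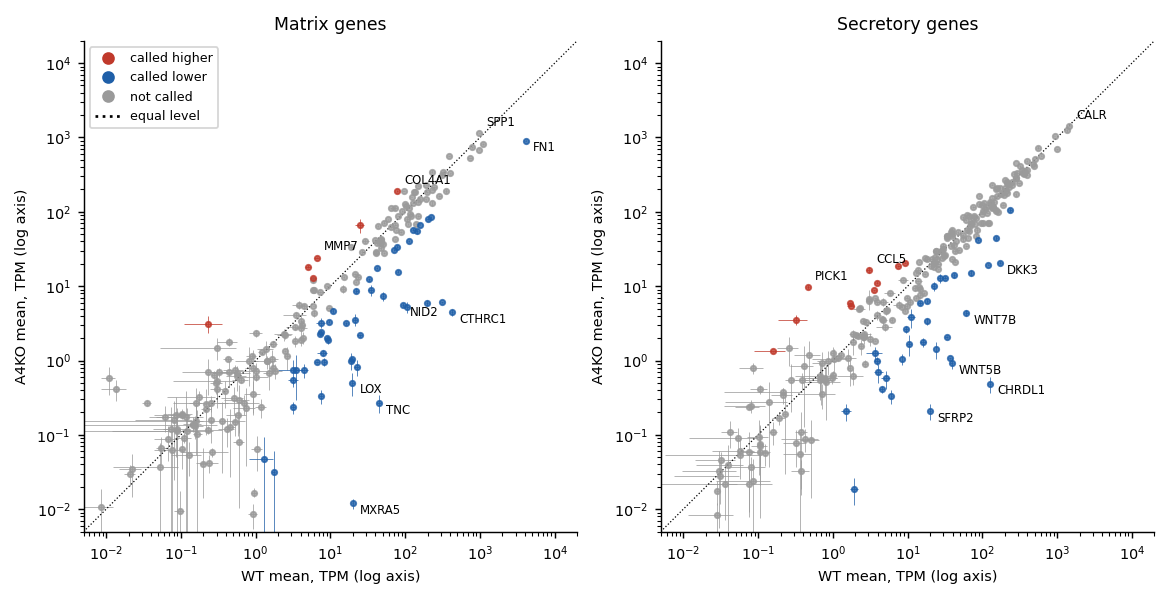
Mean TPM in A4KO (vertical, log axis) against mean TPM in WT (horizontal, log axis) for the 224 measured matrix genes (left) and the 271 measured secretory genes (right), with SD bars over 3 libraries and called genes coloured. FN1 and CTHRC1 lie well under the line of equal level among abundant matrix genes, while CALR lies on it among secretory genes.

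The secretory lists divided into general machinery, which was called in few genes, and the secreted products and regulated release, which were called in many. Over all 7 lists 271 of 318 genes were measured, and 43 were called (15.9%, beside 7.62%), 33 lower (12.2%) and 10 higher (3.69%). The median was -0.08.

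Of the 25 genes of ER import, which carry nascent chains into the ER, none was called by limma (20 had an unadjusted p under 0.05). SEC61G was at 992 ± 37.4 TPM in WT and 694 ± 8.96 TPM in A4KO (log2 fold change -0.51), SEC61B at 392.5 and 486 TPM (0.31), and TRAM1 at 283 and 456 TPM (0.69). Small shifts in both directions thus passed the p threshold without reaching the fold threshold. Of 30 genes of ER folding and the unfolded protein response 1 was called (3.33%, beside 7.62% of all genes), ERO1A. The chaperone calreticulin (CALR) was at 1441 and 1419 TPM, P4HB at 935 and 1038 TPM, calnexin (CANX) at 555 and 729 TPM and HSP90B1 at 613 and 567 TPM. Summed over the list the level was 6976 ± 56.5 TPM in WT and 6776 ± 16.4 TPM in A4KO. Of 42 genes of COPII, COPI and Golgi transport 1 was called (2.38%, beside 7.62%), the cargo receptor TMED10.

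ERO1A, the oxidase that drives disulfide formation, was at 87.4, 90.4 and 87.9 TPM in WT against 40.0, 41.9 and 43.1 TPM in A4KO. TMED10 was at 247, 233 and 228 TPM in WT against 99.6, 112 and 108 TPM in A4KO. Both genes lie on chromosome 14, where most genes were lower in A4KO. With the shift of the 25 expressed genes on each side taken off, their log2 fold changes were -0.22 and -0.38 in place of -1.07 and -1.14, and neither was called. After this step 1 other ER folding gene and 2 other transport genes were called.

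Regulated exocytosis, the release of stored vesicles on a signal, was called in 11 of 54 measured genes (20.4%, beside 7.62% of all genes). Of these 8 were lower (14.8%, beside 5.19%) and 3 higher (5.56%, beside 2.43%). The synaptotagmin SYT12 was at 35.2, 38.0 and 37.8 TPM in WT against 1.06, 1.08 and 1.06 TPM in A4KO (log2 fold change -4.20, SE 0.0419, adjusted p = 8.08e-08). The Rab27 effector SYTL2 fell from 121 to 19.3 TPM, the SNARE protein SNAP25 from 6.05 to 0.333 TPM and STXBP6, a further SNARE binding protein, from 8.46 to 1.06 TPM. PICK1, which takes part in granule formation and receptor trafficking, was at 0.451, 0.483 and 0.457 TPM in WT against 9.75, 9.04 and 10.3 TPM in A4KO. The priming factor UNC13D rose from 0.319 to 3.55 TPM. UNC13C was called at 1.01, and not without WT replicate 1 (0.99) or WT replicate 2 (0.98), nor after neighbour centring (0.69). VAMP8, the most abundant SNARE of the list, at 204 and 209 TPM, was not called.

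Among secreted products, 7 of 39 measured chemokines and cytokines were lower (17.9%, beside 5.19% of all genes) and 2 higher (5.13%, beside 2.43%). IL11, a cytokine of the IL-6 family, was at 23.8, 24.1 and 23.8 TPM in WT against 1.16, 1.27 and 1.83 TPM in A4KO. The neutrophil chemokine CXCL8 fell from 16.2 to 1.76 TPM, CXCL1 from 9.55 to 2.62 TPM and IL18 from 18.2 to 3.38 TPM. CCL5, which attracts T cells, rose from 3.04 ± 0.239 to 16.6 ± 1.48 TPM, and the membrane-bound chemokine CX3CL1 from 3.53 to 8.80 TPM, a call lost after neighbour centring (0.87). MIF, the most abundant, was at 1346 and 1247 TPM and was not called.

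Of 63 measured growth factors and hormones 12 were lower and 3 higher (23.8% called, beside 7.62% of all genes). Of these calls 3 were on chromosome 14, and 12 remained after neighbour centring. The Wnt ligands WNT5B and WNT7B fell from 38.8 ± 1.44 to 0.925 ± 0.166 TPM and from 61.3 ± 2.11 to 4.37 ± 0.351 TPM. INHBB, a subunit of activin B, was at 34.7, 32.2 and 33.1 TPM in WT against 2.10, 2.09 and 2.03 TPM in A4KO, and INHBA, its activin A relative, fell from 41.7 to 14.1 TPM. SEMA3C fell from 69.8 to 15.2 TPM, while SEMA3B rose from 3.86 to 11.1 TPM, endothelin EDN1 from 9.16 to 20.7 TPM and BMP8B from 1.68 to 5.92 TPM. VEGFA, the most abundant of the list, was at 279 TPM in WT and 171 TPM in A4KO, a log2 fold change of -0.70 that was not called.

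Of 18 measured proteins that bind or block these factors 4 were lower and 2 higher (22.2% and 11.1%, beside 5.19% and 2.43% of all genes), with a median of -0.09. Beside CHRDL1, the Wnt-binding SFRP2 was at 20.4, 20.5 and 19.4 TPM in WT against 0.185, 0.271 and 0.177 TPM in A4KO, and DKK3 fell from 172 ± 3.17 to 20.7 ± 1.06 TPM. BMPER was called lower at -1.05, and not with quantile normalization (-0.94) or without WT replicate 2 (-0.98), nor after neighbour centring (-0.84). IGFBP1 rose from 1.73 to 5.49 TPM and KCP from 7.50 to 18.9 TPM. IGFBP3 was the most abundant member over all libraries and was not called.

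**Figure D3:**
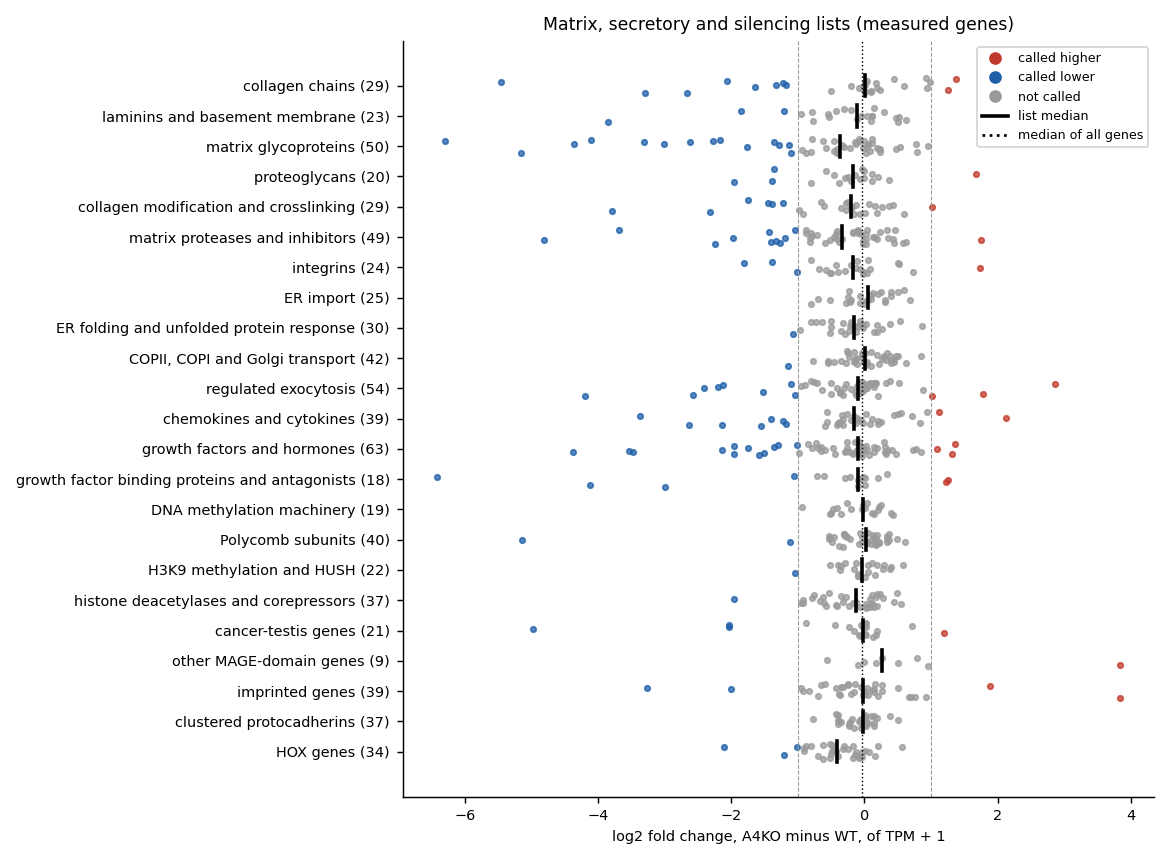
Log2 fold change (A4KO minus WT, of TPM + 1) of each measured gene in the matrix, secretory and silencing lists, with the number measured in brackets, list medians as bars and the median of all genes (-0.03) as a dotted line. Called genes are coloured and dashed lines mark the fold threshold of 1. Calls were 0 of 25 in ER import, 1 of 30 in ER folding and 1 of 42 in Golgi transport. In the matrix lists 53 of 224 genes were called (23.7%, beside 7.62% of all genes).

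Silencing was described by 4 lists of machinery and 5 of gene groups. The groups were cancer-testis, other MAGE-domain, imprinted, clustered protocadherin and HOX genes, and many members were not silent. A mean of at least 1 TPM was reached by 33 of 39 measured imprinted genes and 7 of 9 other MAGE-domain genes. Together these 9 lists hold 372 genes, of which 257 were measured and 15 called (5.84%, beside 7.62% of all genes), 12 lower (4.67%) and 3 higher (1.17%), with a median of -0.05. Zinc finger genes were counted apart. Of 19 genes of DNA methylation none was called by limma (14 had an unadjusted p under 0.05), and after neighbour centring 1 was. The maintenance methyltransferase DNMT1 was at 90.5, 88.9 and 90.6 TPM in WT against 92.5, 92.6 and 92.7 TPM in A4KO. Its partner UHRF1 was at 62.0 ± 1.24 and 74.1 ± 3.17 TPM, the methyl-CpG protein family member MBD3 at 136 and 157 TPM and ZBTB38 at 112 and 92.9 TPM.

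Of 40 Polycomb genes 2 were called lower (5%, beside 5.19% of all genes). AUTS2 (chromosome 7, 69598296 to 70793506), a member of a variant Polycomb complex that is associated with active genes, was at 39.3, 39.0 and 37.7 TPM in WT against 0.116, 0.148 and 0.121 TPM in A4KO (log2 fold change -5.14, SE 0.0357, adjusted p = 3.52e-08). EPOP fell from 3.84 to 1.23 TPM, a call lost with quantile normalization (-0.91). The methyltransferase EZH2 was at 45.4 ± 0.0888 TPM in WT and 63.9 ± 1.47 TPM in A4KO (log2 fold change 0.48), and was not called.

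Of 22 genes of H3K9 methylation and the HUSH complex 1 was called (4.55%, beside 7.62% of all genes), the chromatin remodeler ATRX. It was at 49.1, 51.3 and 47.3 TPM in WT against 22.1, 25.4 and 22.6 TPM in A4KO. With the shift of its neighbours taken off, its log2 fold change was -0.63 in place of -1.05, and it was not called. TRIM28, which zinc finger repressors recruit, was at 328 and 256 TPM, and CBX3 at 329 and 295 TPM. Of 37 histone deacetylases and corepressors 1 was called (2.7%, beside 7.62% of all genes). This was RCOR2, which fell from 3.10 ± 0.567 to 0.0461 ± 0.0320 TPM. HDAC1 was at 156 and 138 TPM, HDAC2 at 183 and 147 TPM, and CHD3 at 121 and 69.7 TPM (log2 fold change -0.78).

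The zinc finger (ZNF) genes of chromosome 19, many of which encode repressors of repeats, were called lower in 9 of 228 (3.95%, beside 5.19%) and higher in none, and 162 had an unadjusted p under 0.05. After neighbour centring 4 of these 9 calls remained. Their median was -0.36, beside -0.06 for the 215 ZNF genes of other chromosomes (4 higher, 1.86%, and 5 lower, 2.33%). ZNF730 fell from 5.98 to 0.160 TPM, ZNF257 from 8.82 to 1.78 TPM and ZNF175 from 15.5 to 5.29 TPM. In 12 windows of equal gene number along chromosome 19, the medians of expressed genes were between -0.06 and 0.20 in the first 5 and between -0.46 and -0.31 in the other 7. These windows include the ZNF genes themselves. On other chromosomes ZNF362 fell from 13.5 to 1.21 TPM and ZNF140 rose from 4.20 to 11.1 TPM.

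Of 93 cancer-testis genes 21 were measured, 3 called lower (14.3%, beside 5.19% of all genes) and 1 higher (4.76%, beside 2.43%). MAGEA6 was at 38.1, 38.0 and 39.7 TPM in WT against 0.217, 0.258 and 0.287 TPM in A4KO. XAGE1A fell from 5.02 to 0.472 TPM, and XAGE1B has the same value in every library, so the 2 calls are 1 measurement. SSX2 rose from 0.216 ± 0.191 to 1.81 ± 0.537 TPM. MAGEA6 and SSX2 have near-identical relatives, and how reads were shared among them is not known, so these levels are uncertain. PRAME, at 35.7 and 30.2 TPM, was not called.

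Of 9 measured MAGE-domain genes outside the cancer-testis group only NDN was called (11.1%, beside 7.62% of all genes). MAGED2 was at 237 and 236 TPM, MAGED1 at 233 and 217 TPM and MAGEF1 at 23.2 and 45.8 TPM (log2 fold change 0.95). Of 39 measured imprinted genes 2 were higher and 2 lower. NDN and the decarboxylase DDC (0.908 to 6.06 TPM) rose. The cell cycle inhibitor CDKN1C was at 22.9, 22.7 and 22.3 TPM in WT against 1.46, 1.56 and 1.38 TPM in A4KO, and the retrotransposon-derived PEG10 fell from 202 to 49.7 TPM. The share called was 10.3%, beside 7.62% of all genes, and the median of the list was -0.02. None of 37 measured clustered protocadherins was called by limma (16 had an unadjusted p under 0.05), and PCDHGC3, the most abundant, was at 68.9 and 39.9 TPM.

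Of 34 measured HOX genes 3 were called lower (8.82% called, beside 7.62% of all genes) and none higher, with a median of -0.41. HOXA7 fell from 10.6 ± 0.527 to 1.71 ± 0.276 TPM and HOXB13 from 1.60 to 0.126 TPM. HOXB3 fell from 33.9 to 16.4 TPM, which put it at the threshold, and it was not called with quantile normalization (-0.95) or without WT replicate 1 (-0.99), WT replicate 3 (-0.998) or A4KO replicate 3 (-0.94). HOXA9, the most abundant, was at 165 and 158 TPM and was not called.

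Described by level instead of fold, 26 genes went from at least 2 TPM in every WT library to at most 0.2 TPM in every A4KO library, out of 11566 genes at 2 TPM or more in all WT libraries. At 5 and 0.1 TPM 4 genes were switched off in place of 26. The reverse of the first change held for 4 genes (0 at 5 and 0.1 TPM), out of 11245 at 2 TPM or more in all A4KO libraries. The switched-off genes with the highest WT levels were AUTS2, POU3F3, CXADR, MXRA5, SORCS2, SLCO2A1, LCNL1, PTGIS, PLD5 and PLBD1. The neural transcription factor POU3F3 was at 31.8, 31.2 and 30.9 TPM in WT against 0.143, 0.0746 and 0.192 TPM in A4KO. The junction protein and virus receptor CXADR fell from 28.7 to 0.09996 TPM, the prostaglandin transporter SLCO2A1 from 16.5 to 0.0701 TPM and the prostacyclin synthase PTGIS from 10.8 to 0.0572 TPM. Of the 26 genes, 3 (AUTS2, MXRA5 and RCOR2) belong to the matrix, secretory or silencing lists.

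The 4 genes switched on were ALPK3, KCNH2, USH1C and NPY1R. The potassium channel KCNH2 was at 0.0358, 0.0128 and 0.109 TPM in WT against 6.35, 6.42 and 6.503 TPM in A4KO. USH1C, a scaffold of epithelial brush borders, was at 0.0696 ± 0.0572 and 5.76 ± 0.993 TPM, and the neuropeptide receptor NPY1R at 0.154 ± 0.0707 and 3.43 ± 0.270 TPM. No deposited value is exactly 0, so levels this low are estimates and not proof of transcripts.

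**Figure D4:**
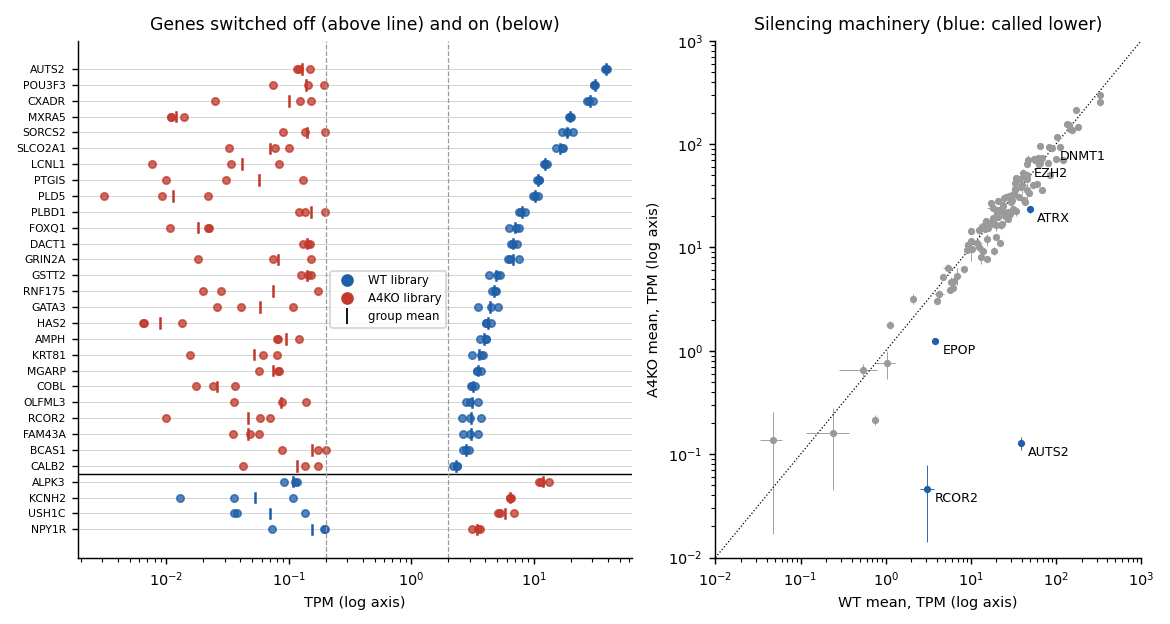
Left, TPM (log axis) of the 26 genes switched off and the 4 switched on, with a point for each WT and A4KO library, a bar at each mean and dashed lines at 0.2 and 2 TPM. Right, mean TPM in A4KO against WT (log axes, SD bars) for the DNA methylation, Polycomb, H3K9 and deacetylase lists, where AUTS2, EPOP, ATRX and RCOR2 are called lower and DNMT1 lies on the line of equal level.

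DNA methylation falls mainly on C followed by G (CG), so the 250 bases before the RefSeq start of a switched-off gene (MXRA5) and of one of the largest rises (NDN) are shown, 5′ to 3′ on the strand of the gene (sequence from RefSeq, GRCh38.p14), with each CG in capitals. Both stretches also lie before the GENCODE start. The MXRA5 sequence is chrX:3346653-3346902 on the minus strand and the NDN sequence chr15:23687306-23687555 on the minus strand.
MXRA5: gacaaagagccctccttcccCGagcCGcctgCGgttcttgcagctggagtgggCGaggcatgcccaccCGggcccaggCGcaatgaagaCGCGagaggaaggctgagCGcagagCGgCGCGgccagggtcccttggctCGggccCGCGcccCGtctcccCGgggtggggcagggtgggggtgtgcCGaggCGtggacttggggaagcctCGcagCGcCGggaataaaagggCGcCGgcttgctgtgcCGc
NDN: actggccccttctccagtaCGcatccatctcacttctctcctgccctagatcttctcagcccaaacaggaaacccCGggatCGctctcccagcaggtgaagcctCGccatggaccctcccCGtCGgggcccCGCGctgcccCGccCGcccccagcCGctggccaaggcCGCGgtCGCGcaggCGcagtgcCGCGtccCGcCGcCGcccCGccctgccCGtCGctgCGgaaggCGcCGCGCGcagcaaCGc
These stretches hold 25 and 30 CG. Over the 12160 genes of the data with a RefSeq stretch the median was 19, the quartiles were 12 and 26, and 99.0% held at least 1 CG. By this count NDN lies above the upper quartile and MXRA5 within the quartiles. For 15 of the 26 switched-off genes a sequence was at hand, under the 80.0% needed to describe them as a set, so no comparison of the set is given. Methylation itself was not measured.

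The median log2 fold change differed between chromosomes and was lowest on chromosome 14. Over the 361 expressed genes of chromosome 14 (mean log2 above 2) the median log2 fold change was -0.77, and 344 of them (95.3%) were lower in A4KO. Taken library by library against the WT mean, the medians of chromosome 14 were 0.01, 0.003 and -0.009 in WT and -0.78, -0.79 and -0.76 in A4KO. In 12 windows along the chromosome they lay between -0.92 and -0.69, so the shift ran over its whole length. Of its 497 genes 113 were called (22.7%, beside 7.62%), 108 lower and 5 higher. Outside chromosome 14 the calls were 1120 of 15691 (7.14%), 732 lower and 388 higher. Chromosomes 13 (0.50), 16 (0.34), 9 (0.27) and 15 (0.23) had raised medians, and chromosomes 22 (-0.30), 6 (-0.28), 18 (-0.21) and 11 (-0.21) lowered ones. Along chromosome 9 the first 3 of 12 windows lay between -0.38 and -0.21 and the others between 0.25 and 0.58. Whether these shifts follow from copy number was not tested.

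With the median shift of the 25 expressed genes on each side taken off each gene in each library, the rule called 1058 genes (6.54%), and 904 of them had also been called without this step. On chromosome 14, 25 of the 113 calls remained. For the matrix lists 47 of 53 calls remained, for the secretory lists 34 of 43 and for the silencing lists 14 of 15. COL4A1 and IRS2, both on chromosome 13, were no longer called, with 0.64 in place of 1.25 and 0.58 in place of 1.19. NID2 on chromosome 14 was called at -3.05 in place of -3.85. HIF1A (chromosome 14, 61695513 to 61748259), the oxygen-regulated subunit of HIF-1, was at 186, 181 and 174 TPM in WT against 13.3, 17.5 and 18.2 TPM in A4KO, and its log2 fold change was -2.56 in place of -3.40. It fell further than its region, with 1 of 361 expressed genes of the chromosome lower. EPAS1, its relative on chromosome 2, was at 86.2 and 64.6 TPM and was not called.

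**Figure D5:**
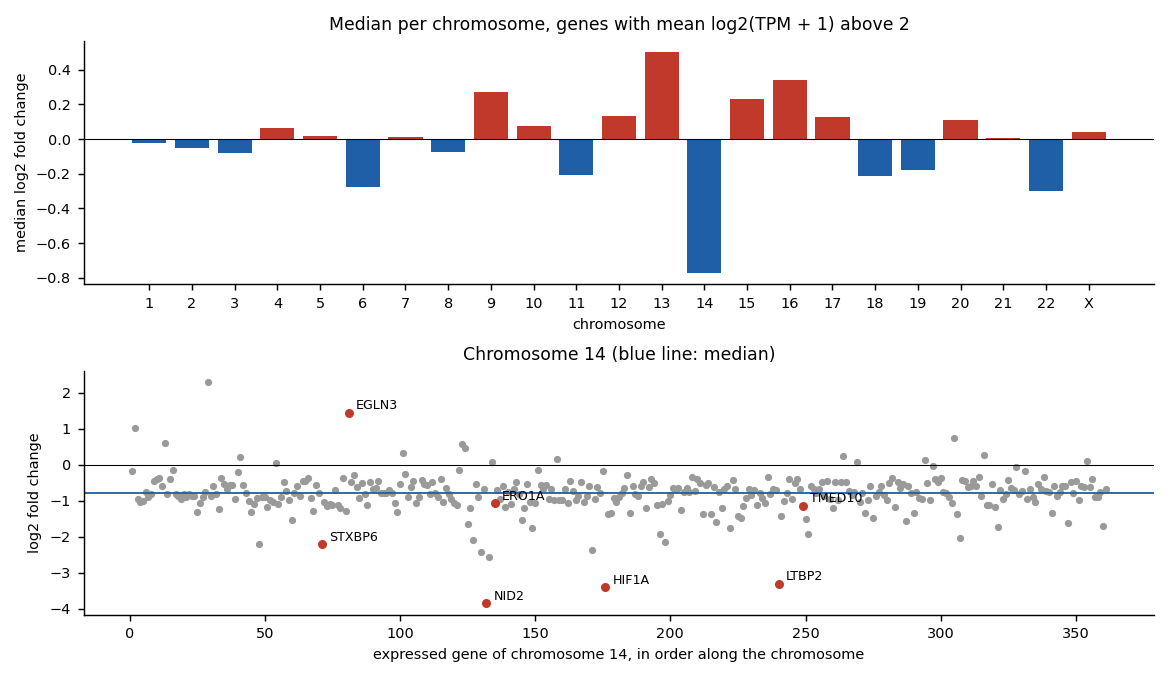
Top, median log2 fold change of expressed genes (mean log2 of TPM + 1 above 2) on each autosome and chromosome X. Bottom, log2 fold change of the 361 expressed genes of chromosome 14 in their order, with the median (-0.77) as a blue line and 7 named genes in red; HIF1A, NID2 and LTBP2 lie far under the line and EGLN3 above it.

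The genes that the study discusses were read from the same fit. PPARGC1A, the coactivator of mitochondrial biogenesis, was at 1.46, 2.24 and 1.42 TPM in WT against 10.8, 8.95 and 9.55 TPM in A4KO. CPT1A, the mitochondrial entry enzyme of fatty acid oxidation, rose from 0.938 ± 0.155 to 6.02 ± 0.353 TPM and the insulin receptor substrate IRS2 from 45.9 to 106 TPM. LIPA, the lysosomal acid lipase gene, was at 101 ± 4.65 TPM in WT and 92.4 ± 0.571 TPM in A4KO (log2 fold change -0.13), and was not called. PPARA was at 14.6 and 11.8 TPM, VHL at 30.2 and 24.7 TPM and IRS1 at 20.03 and 19.8 TPM, none of them called. The reference gene PPIA was at 5725 and 5442 TPM. GAPDH was at 3217 and 3168 TPM, with a log2 fold change of -0.02 that was 0.09 with quantile normalization and 0.003 without WT replicate 1.

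The A4KO against WT change in 786O was compared with that in CAKi-1 by the interaction term of limma over 15247 genes of both lines. Of these genes 55.1% had an adjusted p of at most 0.05. By the methods of the study the CAKi-1 WT cells were parental cells, not pooled clones, so the controls also differ in kind between the lines. ANGPTL4 had a log2 fold change of -2.69 in 786O and of -3.96 in CAKi-1, a difference of 1.27 (SE 0.335, adjusted p = 5.34e-03). Among the 5 largest rises present for both lines, SULT1A1, ALPK3, MGMT and SMIM36 differed between the lines. MGMT had a log2 fold change of 3.26 in 786O and of -0.19 in CAKi-1, where it was already at 74.5 TPM in WT. For TNFAIP6 no difference was shown, with 3.09 in 786O and 3.26 in CAKi-1 (adjusted p = 0.845). The 5 largest falls present for both lines all differed. These rises and falls were chosen for their size in 786O, which enters the difference and makes one likely. COL6A3 had -5.46 in 786O and 1.54 in CAKi-1, TNC -5.16 and 0.31, and CTHRC1 -6.29 and 0.71. FN1, chosen after its values were seen, went opposite ways, with -2.16 in 786O and 4.57 in CAKi-1 (difference -6.73, SE 0.444, adjusted p = 2.98e-08).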

How the data were processed

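RNA was sequenced from 3 WT and 3 A4KO replicates of 786O. Per the labels and methods the authors pseudoaligned reads to hg38 with kallisto (no version given), and they deposited TPM per gene, a unit inferred from the values. How transcripts were summed and which genes were kept is not given in the sources used here. The stated depth is 3000000 reads per sample, TPM keeps no counts, and the counting error of low values was not computed. From the deposited TPM, log2(TPM + 1) was compared by limma 3.58.1 in R 4.3.3 (lmFit and eBayes, two-sided, no filter, Benjamini-Hochberg over all 16188 genes), tested on simulated data first. Tables were made with Python 3.11.15. Gene positions are from GENCODE release 44. The members and gene lists were chosen with earlier results of these data known. Named genes are those the study names, the 12 largest rises and falls among called genes without overlap, up to 4 called members of each list in each direction (where fewer than 2, the most abundant) and 10 switched genes each way. Genes outside this rule are given as examples of their lists, chosen after their values were seen. Alternatives were other eBayes options, scalings, filter, pseudocount, call rule, replicate block, neighbour-centred values and each library left out.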

Additional observations from a re-analysis of the deposited data

Results flagged for a closer look

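In these genes the A4KO against WT change in 786O differed from that in CAKi-1 by the interaction term of limma. Differences are the log2 fold change in 786O minus that in CAKi-1. What sets the lines apart was not tested, and the WT cells of CAKi-1 were parental cells while those of 786O were pooled clones.

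ANGPTL4 itself differed by 1.27, with the larger fall in CAKi-1. LIPA differed by -0.62, from -0.13 in 786O and 0.49 in CAKi-1. Among rises in 786O, SULT1A1 differed by 5.04, ALPK3 by 3.43, MGMT by 3.45 and SMIM36 by 3.11. SULT1A1 was lower in CAKi-1 A4KO cells (log2 fold change -1.43).

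Among falls in 786O, the difference was -7.56 for SLC38A5, -8.72 for PTGDS, -7.01 for CTHRC1, -7.003 for COL6A3 and -5.47 for TNC. SLC38A5 and CTHRC1 had little to lose in CAKi-1, at 0.396 and 0.514 TPM in WT. PTGDS went the opposite way, from 4.05 to 18.0 TPM in CAKi-1. FN1, chosen after its values were seen, differed by -6.73 and went from 221 to 5743 TPM in CAKi-1.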

How the results depend on the processing

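With the replicate number as a block (replicate block) the calls were the same 1233 genes, 393 higher and 840 lower, the ANGPTL4 log2 fold change was -2.69 and no named gene changed its call. Libraries with the same number deviated from their group means with correlations of -0.056, 0.011 and 0.014. Those with different numbers lay between -0.071 and 0.066. No pairing by number was thus seen, but these values cannot show how the libraries were prepared.

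No called named gene changed direction in any alternative tried. A pseudocount of 0.1 gave 2095 calls (689 higher, 1406 lower), with 15 matrix and 17 secretory genes higher and 6 silencing genes higher and 24 lower. The adjusted p alone gave 9874 (4450 higher, 5424 lower), with 44 matrix genes higher and 108 lower, 70 and 113 secretory, and 56 and 95 silencing. Switched genes at 5 and 0.1 TPM numbered 4 off and 0 on. The chromosome 14 median was -0.71 with quantile normalization. The causes were not tested, beyond the looser rules calling more genes by construction.

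Leaving out each library in turn gave 1221 to 1243 calls (389 to 398 higher, 831 to 845 lower), 5 to 8 matrix, 9 to 11 secretory and 3 to 4 silencing genes higher, 46 to 47, 30 to 34 and 11 to 13 lower, 26 to 32 genes switched off and 4 to 5 on, and an ANGPTL4 log2 fold change of -2.73 to -2.62. Of 137 called named genes, 7 lost the call in at least 1 of these fits, 5 with quantile normalization and 17 when neighbour-centred, with log2 fold changes near 1 or in shifted regions. The differences between lines kept their calls with a pseudocount of 0.1, quantile normalization and each of 15 libraries left out, alternatives chosen after seeing the data.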

Other observations

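Shares of called genes are to be read beside 7.62% of all genes. Of 31 beta-oxidation genes 2 were higher (CPT1A and EHHADH) and 1 lower (CPT1B, 29.9 to 10.7 TPM, not called after neighbour centring at -0.93), which is 9.68%, with a median of 0.08. EHHADH was called at 1.0009, and not without WT replicate 1 (0.94), A4KO replicate 1 (0.91) or A4KO replicate 2 (0.98), nor after neighbour centring (0.85). The median of 25 genes of cholesterol synthesis and uptake was 0.27, with 2 called higher and 1 lower (12%). The sterol oxidase MSMO1 rose from 64.1 ± 2.42 to 201 ± 4.05 TPM, and the sterol sensor INSIG1 from 166 to 374 TPM.

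Of 27 measured hypoxia targets 2 were higher and 5 lower (25.9%). The HIF prolyl hydroxylase EGLN3 rose from 26.5 to 74.1 TPM although it lies on chromosome 14, and NDRG1 rose from 355 ± 8.48 to 949 ± 13.3 TPM. The carbonic anhydrase CA9 fell from 7.54 to 0.287 TPM, PFKFB4 from 49.7 to 17.7 TPM and the hexokinase HK2 from 33.7 to 12.3 TPM. Of 36 measured lysosomal genes 1 was higher, the cathepsin CTSS (6.48 to 22.7 TPM), and 1 lower, the arylsulfatase ARSA (5.56% called). ARSA, at a log2 fold change of -1.0001, was not called with quantile normalization (-0.94), median ratio scaling (-0.998) or neighbour centring (-0.51). It was also not called without WT replicate 1 (-0.96), A4KO replicate 2 (-0.99) or A4KO replicate 3 (-0.98). Of 30 proliferation genes RRM2 was called (3.33%), from 117 to 252 TPM, and not after neighbour centring (0.89). The median of the list was 0.17. Of 6 measured line genes HIF1A was called (16.7%), and CDKN2A and CDKN2B are not listed among the genes.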
